A study of Mus musculus with 6 samples.

Results

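The CSF-1 receptor, its ligands and the other colony-stimulating factor genes were followed in murine prostate tumor cells stimulated with CSF-1. The set holds 8 genes, chosen by name, among 36163 genes on the array: the receptor Csf1r, its ligands Csf1 and Il34, the ubiquitin ligase Cbl, the factors Csf2 and Csf3, and the related receptor Kit with its ligand Kitl. They are read by 12 probes of 55681. All cells were N18-Fms (N18-CFMS in the labels), a luciferase-expressing subclone of the TRAMP C2H prostate tumor line. Murine c-fms cDNA had been introduced by a retrovirus, and the cells had been sorted on surface CD115, the receptor protein. Every group therefore carried the transgene and was grown with serum and dihydrotestosterone. The 3 groups were Control (unstimulated), 24H CSF1 and 48H CSF1 (recombinant murine CSF-1 at 100 ng/mL for 24 h or 48 h). Each had 2 single-color arrays, with RNA from 2 independent experiments. The methods text gives other, shorter times, and the labelled times are used here. No array of cells without the transgene was analysed here, so the comparisons concern the ligand, not the receptor's introduction. All results come from 1 subclone, and in these bulk samples fewer cells of a type and less RNA per cell cannot be told apart.

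CSF-1R is a class III receptor tyrosine kinase, encoded by Csf1r and best known for keeping macrophages and their precursors alive and dividing. CSF-1 and IL-34 are separate proteins that share little sequence and bind the same receptor. Once bound, the receptor phosphorylates itself, signals through the MAP kinase, PI3 kinase and STAT routes, and is ubiquitinated by Cbl, internalized and degraded. Csf2 and Csf3 encode GM-CSF and G-CSF, which act on myeloid cells through receptors of another family. Kit is a close relative of Csf1r, and Kitl encodes its ligand, stem cell factor.

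Values are the log2 of the background-subtracted spot signal minus the array's 75th percentile, so 0 means as bright as that percentile. Levels of different probes cannot be set against each other, because probes bind with different strength. To be tested, a probe had to be marked by Feature Extraction as well above background on each of the 2 arrays in 1 or more groups, which held for 10 of the 12 probes and 6 of the 8 genes. Between 58.7% and 72.0% of spots were well above background per array, 0 were saturated, and replicate arrays had a Pearson correlation of 0.9944 to 0.9954 across probes, which are not independent. Array 1 of 24H CSF1 was alone on its slide. Differences were tested with limma (2-sided) in one fit of all 6 arrays, and called at a Benjamini-Hochberg adjusted p under 0.05 over all 34807 probes tested.

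The stretches below show what was measured for the genes on which the results turn. Csf1 is read at 2 places, and the letters in capitals are the 29 bases that the 2 probes of transcript variant 3 share in the stretches shown, so these probes are not independent readouts. The 60-base probes overlap by 31 bases and lie 4128 bases from the probe of variants 1 and 2. Sequences are given 5′ to 3′ as the array files list them, with their places on build mm9, minus strand.
Csf1 A_55_P2017914, variant 3, last 30 bases, chr3:107548550-107548579: AGCTGCATCATATATTGTCATATGTTGAGc
Csf1 A_55_P2169669, variant 3, first 30 bases, chr3:107548551-107548580: cAGCTGCATCATATATTGTCATATGTTGAG
Csf1 A_51_P195506, variants 1 and 2, first 30 bases, chr3:107544363-107544392: tgtggggcttacttagccttctggttacag
Il34 A_51_P268234, first 30 bases, chr8:113265865-113265894: aagaacgacggggtgcctcctaggatccca
Csf2 A_51_P171075, first 30 bases, of a probe that the files place only in part, at chr11:54060772-54060799: tctgaaaacgctgactcagcttggacagcg
Whether each stretch is coding or untranslated was not analysed here.

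In cells stimulated with CSF-1, Il34, which encodes the other ligand of the receptor, rose to 3.28 times Control at 24 h and 3.26 times at 48 h. Csf2 rose from a signal not well above background. Probes of 1 Csf1 transcript variant fell by about 1.35 on the log2 scale at 48 h, while Csf1r did not pass the test at either time. Counting each gene by its brightest probe, 2 of the 6 genes tested were called at 24 h, Il34 and Csf2, both higher. Csf2 met the condition for testing only through its 24 h arrays, the group where its mean was highest. Its place in the count is therefore not independent of the filter. Of all 24643 genes tested, 12.8% were called at 24 h, 7.55% higher and 5.23% lower. At 48 h the same 2 genes were called, against 12.1% of all genes, 5.92% higher and 6.22% lower. With so few members, these counts say little beyond the single genes. At the threshold named with the study's comparisons, 2-fold or more with an unadjusted p under 0.05, the members called were again Il34 and Csf2 at both times, against 7.67% of all genes at 24 h and 6.48% at 48 h.

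**Figure D1:**
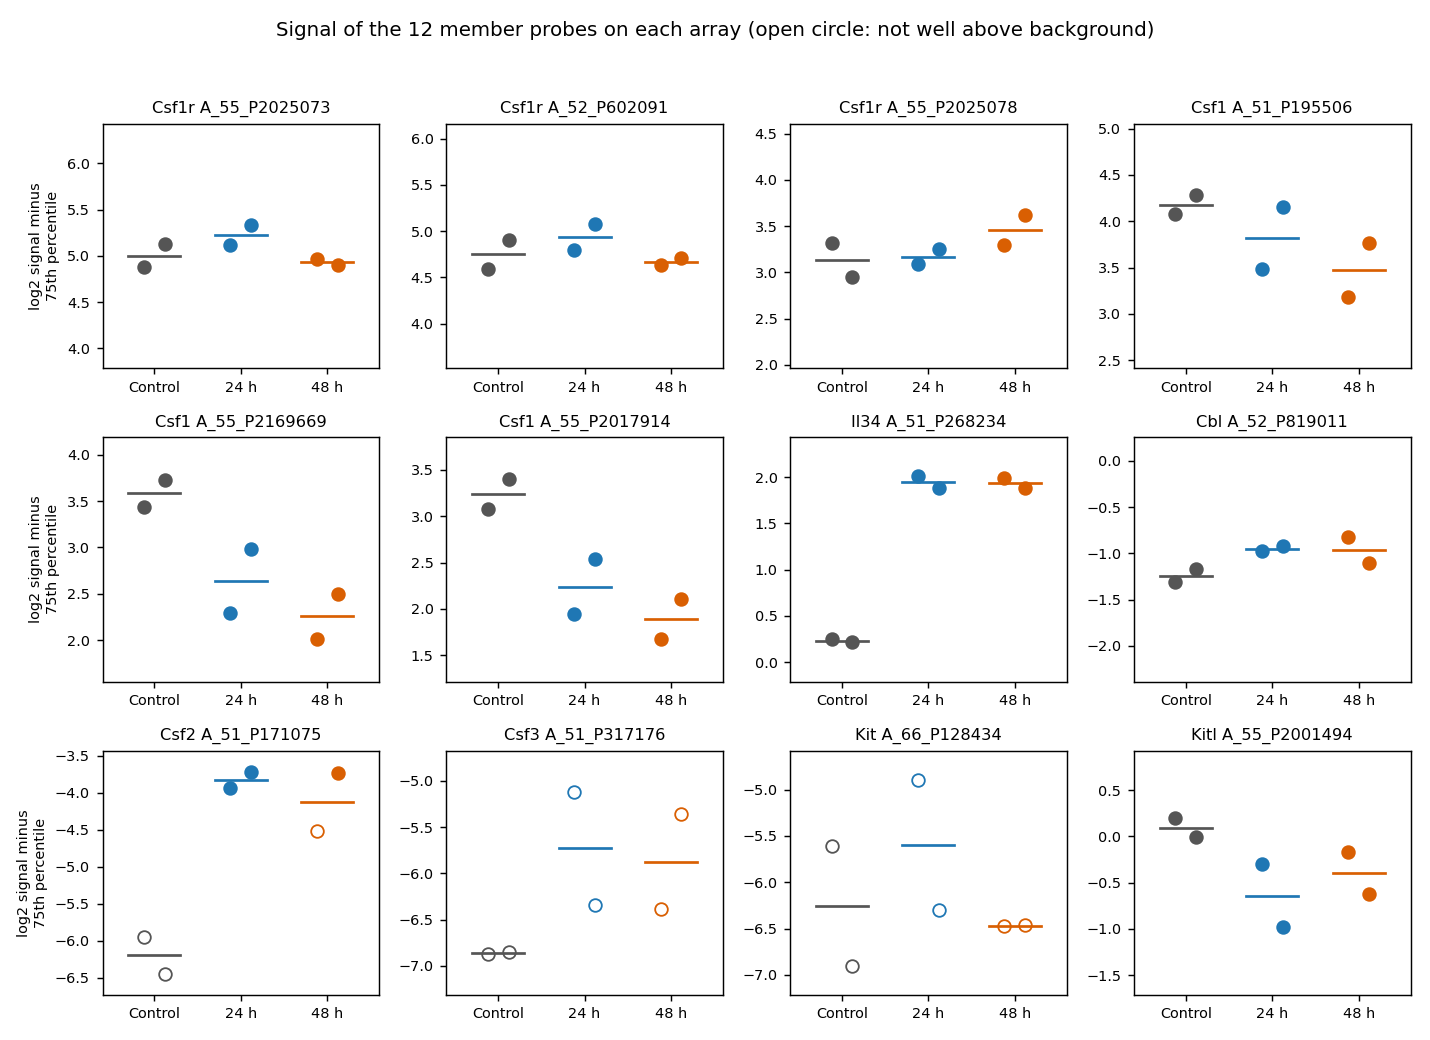
Log2 signal minus the array's 75th percentile (vertical axis) of the 12 probes in each of the 6 arrays, by group (horizontal axis); bars are group means of 2 arrays, and open circles are spots not well above background. The 4 stimulated arrays lie above both Control arrays for Il34 and Csf2, and below them for all 3 Csf1 probes except array 2 of 24H CSF1 at A_51_P195506, which lies between the Control arrays. They also lie above both Control arrays for Cbl and for Csf3, which is not well above background on any array, and below them for Kitl.

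The receptor itself was bright in every group. Csf1r has 3 probes on the plus strand of chromosome 18, named here from the 5′ to the 3′ end of the gene. At A_55_P2025073 (chr18:61278661-61278720), the brightest, the log2 values were 4.88 and 5.13 in Control, 5.12 and 5.34 in 24H CSF1 and 4.96 and 4.90 in 48H CSF1. At A_52_P602091 (chr18:61289398-61289758) they were 4.60 and 4.91, then 4.80 and 5.08, then 4.64 and 4.71. At A_55_P2025078 (chr18:61290725-61290784) they were 3.32 and 2.95, then 3.09 and 3.25, then 3.30 and 3.62. The stimulated arrays overlapped Control at all 3 probes and at both times. The brightest probe differed from Control by 0.22 ± 0.15 (log2, SE, n = 2 and 2; limma adjusted p = 0.378, 95% interval -0.15 to 0.60) at 24 h. At 48 h the difference was -0.07 ± 0.15 (adjusted p = 0.80, interval -0.44 to 0.30). A p that misses the threshold does not show that the groups were alike, and with 2 arrays in a group the intervals allow changes of either sign. With each array centred on its median, all genes shifted together, from a median difference of 0.04 to -0.25 at 24 h and from -0.04 to -0.14 at 48 h, and the Csf1r difference at 24 h changed sign, to -0.06. The probes read the transgene and the gene of the cell together wherever the cDNA holds their sequence, and how far the cDNA reaches is not given in the sources used here.

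Between 24 h and 48 h the 3 Csf1r probes did not move one way. The 2 probes nearer the 5′ end were lower at 48 h, by 0.29 and 0.27 in the log2 mean, and the probe nearest the 3′ end was higher by 0.29. The arrays of the 2 times did not overlap at any of the 3 probes, yet none passed the test (limma adjusted p = 0.456, 0.532 and 0.552). Within each array, the 3′ probe minus the 5′ probe was -2.09 to -2.03 at 24 h and -1.67 to -1.28 at 48 h, a change of 0.58. Control arrays spanned -2.18 to -1.55, so the difference lay within the range of unstimulated cells at 24 h and overlapped it at 48 h. The exact permutation test gave p = 0.333 for 48 h against 24 h (2-sided), the smallest p that 2 against 2 arrays allow.

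Csf1, the gene of the added ligand, was well above background on all 6 arrays at all 3 of its probes. The brightest, A_51_P195506, reads variants 1 and 2 and is averaged over 10 spots; its log2 values were 4.08 and 4.28 in Control, 3.48 and 4.16 in 24H CSF1, and 3.18 and 3.77 in 48H CSF1. Both arrays at 48 h lay below both Control arrays, and the times overlapped each other. The difference from Control was -0.36 ± 0.30 (SE) at 24 h (limma adjusted p = 0.48) and -0.70 ± 0.30 at 48 h (adjusted p = 0.194, 95% interval -1.45 to 0.05), so by this probe Csf1 was not called.

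The 2 probes of Csf1 variant 3 showed larger differences. A_55_P2169669 (chr3:107548521-107548580) gave log2 values of 3.44 and 3.73 in Control, 2.30 and 2.98 in 24H CSF1, and 2.01 and 2.50 in 48H CSF1. A_55_P2017914 (chr3:107548550-107548609) gave 3.08 and 3.40, then 1.94 and 2.54, then 1.67 and 2.11. At both probes every stimulated array lay below both Control arrays. At 24 h the differences were -0.943 ± 0.29 and -0.997 ± 0.27 (SE; limma adjusted p = 0.0973 and 0.0706), outside the threshold. At 48 h they were -1.33 ± 0.29 and -1.35 ± 0.27 (adjusted p = 0.0463 and 0.0369), and both probes were called lower, to about 0.40 and 0.39 of Control. These calls were lost without either Control array and without either 48 h array: with 1 array removed the log2 difference at 48 h lay between -1.57 and -1.09 for A_55_P2169669 and between -1.57 and -1.13 for A_55_P2017914. Without a 24 h array they kept the call.

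The Csf1 probes could be compared with each other within an array, which removes any factor common to all spots of that array. A_55_P2169669 minus A_51_P195506 was -0.64 and -0.55 in the Control arrays, -1.18 and -1.17 at 24 h, and -1.17 and -1.27 at 48 h. For A_55_P2017914 the differences were -1.001 to -0.883 in Control, -1.62 to -1.54 at 24 h and -1.66 to -1.51 at 48 h. The signal of variant 3 thus dropped relative to that of variants 1 and 2 by 0.58 and 0.64 on the log2 scale at 24 h, and by 0.63 and 0.65 at 48 h, with no overlap between stimulated and Control arrays. The exact permutation test gave p = 0.333 for each, again the smallest possible. Between 24 h and 48 h the arrays overlapped, with changes of -0.04 and -0.01. The pair of probes was compared after the values had been seen, and unequal change between probes does not say which transcript changed in amount.

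**Figure D2:**
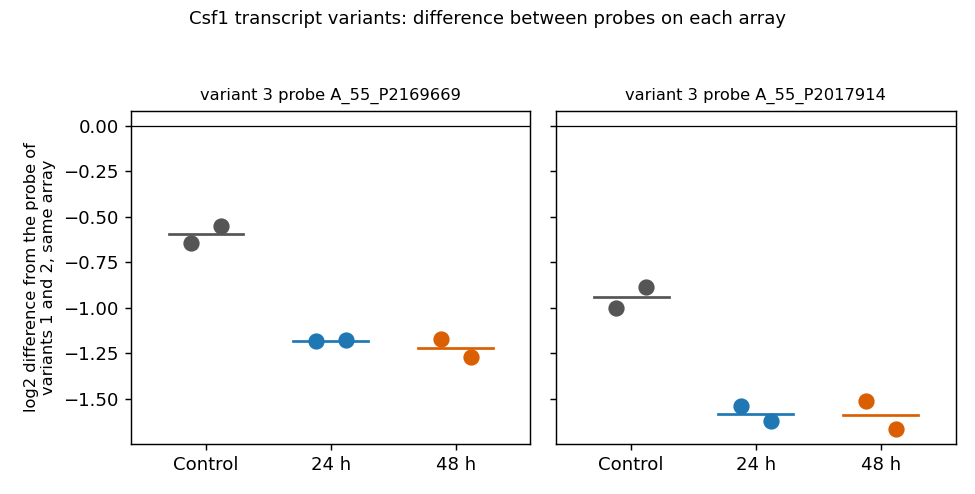
Log2 difference between each Csf1 variant 3 probe and the probe of variants 1 and 2 on the same array (vertical axis), by group (horizontal axis); points are arrays and bars are means of 2. The Control arrays lie at -0.64 and -0.55 on the left and between -1.001 and -0.883 on the right, above all 4 stimulated arrays in each panel.

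Il34 encodes the second ligand of CSF-1R, a cytokine of neurons and keratinocytes that maintains microglia and Langerhans cells. Its single probe gave log2 values of 0.25 and 0.21 in Control, 2.01 and 1.88 in 24H CSF1, and 1.99 and 1.88 in 48H CSF1. The 4 stimulated arrays were close to each other and far from both Control arrays. Il34 rose by 1.71 ± 0.12 (log2, SE, n = 2 and 2) at each time, with limma adjusted p = 0.00328 at 24 h and 0.00261 at 48 h. The 95% intervals ran from 1.42 to 2.01 and from 1.41 to 2.001. Of 24643 genes, 574 had a larger rise at 24 h and 581 at 48 h. From 24 h to 48 h it differed by -0.01 (adjusted p = 0.99, interval -0.30 to 0.29). The call at each time held without any 1 array, with log2 differences of 1.65 to 1.78 at 24 h and 1.65 to 1.76 at 48 h.

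**Figure D3:**
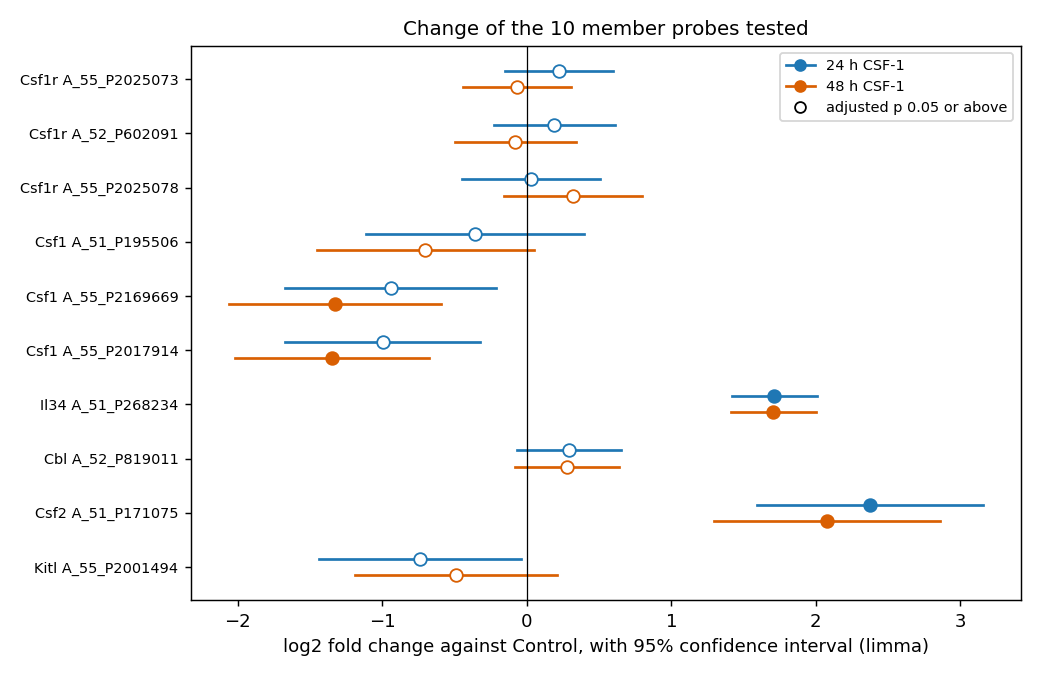
Log2 fold change against Control (horizontal axis) with its 95% confidence interval from limma for the 10 member probes tested, at 24 h (blue) and 48 h (orange); filled points have an adjusted p under 0.05. Il34 and Csf2 are filled to the right of 0 at both times, the Csf1 variant 3 probes are filled to the left at 48 h, and the 3 Csf1r probes have intervals that include 0.

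Cbl, whose product tags the activated receptor for degradation, gave log2 values of -1.31 and -1.17 in Control (chr9:43958124-43958183), -0.97 and -0.92 at 24 h, and -0.82 and -1.10 at 48 h. All 4 stimulated arrays lay above both Control arrays, but the differences of 0.29 ± 0.14 and 0.28 ± 0.14 (SE) were not called (limma adjusted p = 0.239 and 0.265).

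Among the other colony-stimulating factors, Csf2, the gene of GM-CSF, was dim. Its probe, averaged over 10 spots, gave log2 values of -5.95 and -6.45 in Control, -3.94 and -3.72 in 24H CSF1, and -4.52 and -3.73 in 48H CSF1. It was not well above background on either Control array, was on both 24 h arrays, and was on 1 of 2 at 48 h. The mean of the stimulated arrays was set against the lowest signal that counted as well above background on the Control arrays. By that measure Csf2 was 1.87-fold higher at 24 h and 1.52-fold higher at 48 h. These are only rough lower bounds, because a probe brighter than that signal can still miss the mark of well above background. The 48 h value also averages in array 1, which was not well above background itself. The fitted log2 differences were 2.37 ± 0.31 and 2.07 ± 0.31 (SE; limma adjusted p = 0.0129 and 0.0194). They hang on Control values below that level, and with normexp background correction they were 0.53 and 0.42. The call was lost at 24 h without either 24 h array or without Control array 2 (highest adjusted p = 0.0721), and at 48 h without either Control array or without 48 h array 2 (highest 0.0929). Csf3, the gene of G-CSF (chr11:98564614-98564673), was not well above background on any array, with log2 values between -6.87 and -5.12, and was not tested.

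Kit and its ligand showed no called change. Kit (chr5:76052394-76052453) was not well above background on any of the 6 arrays, with log2 values from -6.90 to -4.89. Kitl (chr10:99558962-99559021) gave log2 values of 0.20 and -0.01 in Control, -0.30 and -0.98 at 24 h, and -0.17 and -0.62 at 48 h. Every stimulated array lay below both Control arrays, by means of -0.74 ± 0.28 (SE; limma adjusted p = 0.147) and -0.49 ± 0.28 (adjusted p = 0.309). With arrays centred on their medians the 24 h difference was -1.02 (adjusted p = 0.027) and passed the threshold.

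Setting 48 h against 24 h, 0 of the 6 member genes tested and 0 of all 24643 genes (0%) were called by limma, while 3228 genes had an unadjusted p under 0.05. At an unadjusted p under 0.05 and 2-fold, 2.26% of all genes and 0 members passed. Both comparisons with Control share the same 2 Control arrays, so the likeness of their values is no separate evidence.

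The genes whose profile was most like that of a member were taken among 12306 genes well above background on all 6 arrays, by the root mean square difference of the 6 log2 values, each set relative to its own Control mean. For Il34 these were Sh3pxd2b (0.13), Jak3 (0.13) and Phyh (0.13). Sh3pxd2b, an adaptor of podosomes, differed from Control by 1.72 at 24 h and 1.69 at 48 h. Jak3, a kinase that acts with cytokine receptors of lymphoid cells, differed by 1.86 and 1.69, and Phyh, a peroxisomal enzyme, by 1.70 and 1.71 (limma adjusted p at most 0.00533 for these 3 genes). For Csf1r they were Rnf40 (0.035), Olfr1368 (0.047) and Ttll4 (0.051), none of which was called at either time.

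Genes of the pathway around the receptor were described by counts and medians of lists. The lists were written from general knowledge with earlier results of these data known, so their called shares are no independent support. The counts stand beside the 12.8% of all genes called at 24 h (7.55% higher and 5.23% lower) and the 12.1% called at 48 h (5.92% higher and 6.22% lower). Pdgfra, Spi1 and Tyrobp each belong to 2 of the lists. Of 8 other class III receptor kinases and their ligands, all tested, 2 were called higher and 2 lower at 24 h, and 1 higher and 2 lower at 48 h. The list's median log2 difference was 0.25 at 24 h and 0.08 at 48 h, beside 0.04 and -0.04 over all genes. Pdgfrb, a receptor for PDGF in mesenchymal cells, fell by 1.91 and then 1.12 on the log2 scale against Control (limma adjusted p = 0.00979 and 0.0357). Pdgfc, a ligand of the PDGF receptors, fell by 1.27 and 1.38 (adjusted p = 0.00809 and 0.00634). Pdgfra, the alpha receptor, was 1.33 higher at 24 h (adjusted p = 0.0202) and 0.63 higher, not called, at 48 h. In the 6 fits that each left out 1 array, Pdgfrb kept its call in 5 at 24 h and in 1 at 48 h.

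Among receptors for the other colony-stimulating factors and for IL-34, the receptor of another cytokine changed by the most. Of 10 such genes, with the cytokines Il3 and Il5 among them, 7 were tested and 2 were called at each time, both higher; the median was 0.33 and 0.42. Il5ra, the alpha chain of the IL-5 receptor, rose by 5.93 ± 0.67 (log2, SE) at 24 h and 6.12 ± 0.67 at 48 h (limma adjusted p = 0.00953 and 0.00888). Its group SD was 0.81 at 24 h and 1.30 at 48 h, against 0.09 in Control. Sdc1, the heparan sulfate proteoglycan syndecan-1, which also binds IL-34, rose by 0.93 and 0.68 (adjusted p = 0.0105 and 0.0237). With 1 array left out, the Sdc1 call held in 3 of 6 fits at 24 h and in 0 of 6 at 48 h, and the Il5ra call in 3 and 4. Ptprz1, another IL-34 receptor, and Csf2ra, the alpha chain of the GM-CSF receptor, were not well above background on any array. Csf3r, the gene of the G-CSF receptor, was well above background on all 6, with log2 means of 6.17, 6.05 and 5.91 in Control, 24H CSF1 and 48H CSF1. Csf2rb, Csf2rb2 and Il3ra were also well above background on all 6 arrays. None of these 4 genes was called.

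Among 35 adaptors and kinases of CSF-1R signaling, 31 were tested, of which 4 were called higher and 0 lower at 24 h, and 4 higher and 1 lower at 48 h. The called share was 12.9% and 16.1%, near that of all genes (12.8% and 12.1%), and the median was 0.15 and 0.08. Stat5a, a transcription factor activated by cytokine receptors, rose by 3.60 ± 0.21 (log2, SE) at 24 h and 2.39 ± 0.21 at 48 h (limma adjusted p = 0.00226 and 0.00488). Stat3, of the same family, rose by 1.35 and 1.04 (adjusted p = 0.0149 and 0.0299). Map2k1, the MAP kinase kinase that phosphorylates ERK, rose by 1.09 and 1.25 (adjusted p = 0.0277 and 0.0214). The calls of Stat3 at 48 h and Map2k1 at 24 h did not hold with arrays centred on their medians. With 1 array left out, the Stat3 call held in 3 of 6 fits at 24 h and in 0 of 6 at 48 h, and the Map2k1 call in 3 and 2.

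Several inhibitors of receptor signaling rose with the ligand. Of 26 negative regulators of CSF-1R signaling, 24 were tested, and 10 were called higher and 1 lower at each time, with medians of 0.49 and 0.25. The called share was 45.8% at each time, beside 12.8% and 12.1% of all genes. A high share was not particular to this list. It was 50% at 24 h and 37.5% at 48 h for the class III kinases and ligands, and 55.6% and 33.3% for the transcription factors below. For the fibroblast and endothelial markers below it was 66.7% and 50%. Socs3, which shuts off cytokine receptor signaling, had a Control mean of 2.87 ± 0.04 (log2, SD, n = 2), 6.60 ± 0.18 at 24 h and 5.77 ± 0.55 at 48 h. It rose by 3.74 and 2.91 (limma adjusted p = 0.0035 and 0.00558). Cish, another member of the SOCS family, rose by 3.38 and 3.05 (adjusted p = 0.00194 and 0.00181). Spry4, an inhibitor of the Ras and ERK route, rose by 2.41 and 2.29 (adjusted p = 0.0087 and 0.00976). Spry1, a relative of Spry4, was the 1 gene called lower, by 1.76 and 2.001 (adjusted p = 0.0101 and 0.00757). Cbl itself, beside these, was not called.

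Of 13 transcription factors known to act on the Csf1r gene, 9 were tested, with 4 higher and 1 lower at 24 h and 3 higher and 0 lower at 48 h, and medians of 0.37 and 0.30. Fos, a subunit of AP-1, rose by 2.93 and 2.10 (limma adjusted p = 0.00971 and 0.0228). Egr1 rose by 2.46 and 1.70 (adjusted p = 0.0177 and 0.0443) and Egr2 by 1.999 and 1.18 (adjusted p = 0.00402 and 0.0138); both are immediate early zinc finger factors. With 1 array left out, the call at 48 h held in 3 of 6 fits for Fos, 1 for Egr1 and 3 for Egr2. Runx1 was called higher at 24 h, by 1.07 (limma adjusted p = 0.0251), and Maf was the 1 gene called lower, by 1.80 (adjusted p = 0.0255). Neither was called at 48 h (adjusted p = 0.112 and 0.0870). Spi1, which encodes PU.1, the factor that drives Csf1r in macrophages, was not well above background on any array.

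**Figure D4:**
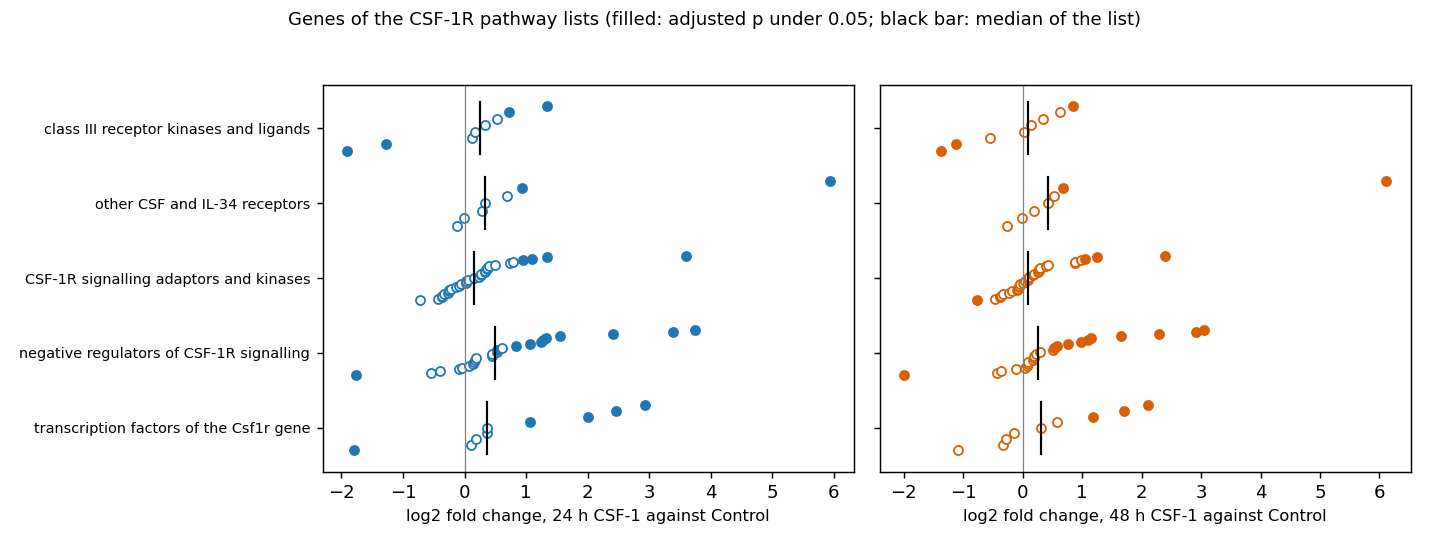
Log2 fold change against Control (horizontal axis) at 24 h and 48 h of each tested gene in 5 lists around CSF-1R (rows); filled points have a limma adjusted p under 0.05 and black bars are list medians. In the list of negative regulators 10 of 24 genes are filled to the right of 0 and 1 to the left at each time.

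Markers of other cell types were read on the same arrays, beside the changes of Il34, Csf2 and Csf1. Of 20 macrophage markers, 19 could be read and 11 were tested, of which 3 were called higher at 24 h and 4 at 48 h, and 0 lower. The list's summed signal relative to the 75th percentile was 44.3 to 49.8 in Control, 38.0 to 45.7 at 24 h and 33.8 to 42.6 at 48 h. The brightest probe of Itgam, an integrin chain of myeloid cells, made up 62.4% to 84.8% of that sum and was not called (log2 differences of -0.43 and -0.65; limma adjusted p = 0.271 and 0.129). Here and for the lists below, a sum adds probes that bind with different strength. A gene's share of it says which probes dominate the sum, not how much of the RNA the gene makes up. Without Itgam the sum was 6.89 to 7.58 in Control, 11.9 to 12.4 at 24 h and 12.3 to 12.7 at 48 h. Mrc1, the mannose receptor, rose by 4.27 and 3.56, Mpeg1 by 0.95 and 3.12, and Cd14 by 0.87 and 0.69 (log2; limma adjusted p at most 0.0313). With 1 array left out, the Cd14 call held in 2 of 6 fits at 24 h and in 0 at 48 h, and the Mpeg1 call in 2 and 6. Ctss was also called higher at 48 h (2.61, adjusted p = 0.00908). It was well above background only on the 48 h arrays, so it met the condition for testing only through them. Lyz2, Spi1 and Cd163, markers of macrophages, were not well above background on any of the 6 arrays. Adgre1, Ptprc, Fcer1g, Marco and C1qa, of the same list, were well above background on all 6 arrays and were not called.

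Of 14 fibroblast and endothelial markers, 12 were tested, with 4 higher and 4 lower at 24 h and 2 higher and 4 lower at 48 h. The summed signal was 370.5 to 370.6 in Control, 165.3 to 175.7 at 24 h and 145.3 to 190.2 at 48 h. The chains of type I collagen, Col1a1 and Col1a2, made up 80.9% to 86.7% of it. Col1a1 fell by 0.88 and 1.19 on the log2 scale (limma adjusted p = 0.0209 and 0.0107). Col1a2 fell by 1.44 and 1.23 (adjusted p = 0.0153 and 0.0244). Col3a1, of type III collagen, fell by 1.35 and 0.82 (adjusted p = 0.0117 and 0.0399). Without Col1a1 and Col1a2 the sum was 49.2 to 54.0 in Control, 30.8 to 31.9 at 24 h and 27.7 to 29.4 at 48 h. Acta2, the actin of smooth muscle and myofibroblasts, fell by 2.26 and then 3.48 (adjusted p = 0.0371 and 0.0139). The Acta2 call at 24 h held in 0 of 6 fits with 1 array left out (-1.69, adjusted p = 0.104, without 24 h array 1), and at 48 h in 2 of 6. Cdh5, a cadherin of endothelial cells, rose by 3.87 and 3.97, and Dcn, the proteoglycan decorin, by 2.08 and 2.78 (adjusted p at most 0.0174). The Dcn call held in 3 of 6 such fits at 24 h and 5 at 48 h. Cdh5 was well above background on 1 of the 2 Control arrays.

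Of 17 genes listed for the prostate epithelium, 11 were tested, with 1 higher at 48 h and none other called. The summed signal was 353.6 to 369.1 in Control, 311.4 to 325.2 at 24 h and 281.6 to 317.3 at 48 h. That list also holds Vim and Cdh2, genes of mesenchymal cells, which made up 94.1% to 96.2% of the sum. Neither was called (adjusted p = 0.438 and 0.218 for Vim, 0.0864 and 0.0750 for Cdh2). Without Vim and Cdh2 the sum was 16.1 to 16.2 in Control, 12.5 to 14.2 at 24 h and 14.4 to 16.5 at 48 h. Cdh1, Foxa1, Hoxb13 and Tmprss2, which mark the epithelium of the prostate, were not well above background on any array, although the line is labelled as a prostate tumor line. The part of these markers in the members' changes was not tested.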

How the data were processed

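RNA was hybridized to 6 single-color Agilent mouse arrays. Per the submitters' processing notes, the spots were quantified with Agilent Feature Extraction 11.0.1. The authors deposited, for each array, the background-subtracted spot intensity, not normalized between arrays, with the mean and local background intensity that served only an alternative. The authors also deposited log2 values of part of the probes, 44323, of which 10 are member probes; 99.8% of the differences between arrays lay within 0.05 of those computed here, and their probe baseline and centring are not given in the sources used here.

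Outlier spots were dropped, the spots of one probe were averaged on the log2 scale, and each array's 75th percentile was subtracted. A probe with repeated spots counted as well above background where most of its spots did. Of 55681 probes, 303 had no usable spot on some array. Probes that passed the filter on dim signals, 34807 for 24643 genes, were fitted in R 4.3.3 with limma 3.58.1 (lmFit, eBayes, 2-sided; 3 residual and 2.38 prior degrees of freedom; files read with version 1.17.8 of data.table). A gene was counted by its brightest probe. The fit was tested on simulated data. The number of arrays limits the precision.

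The members and lists were chosen with earlier results of these data known. Named genes were all members and the 3 genes nearest in profile to Csf1r and Il34. Of each list, the 3 genes that changed most on average among those past the threshold at each time were named too. Pdgfra, Spry1, Ctss, Runx1 and Maf were added after their values were seen. So were genes named for being dim, for being well above background or for dominating a sum. The alternatives were other normalizations (quantile, median centring), background corrections (normexp, offset 50), the authors' values, filters, probe choices, priors, blocks, the methods' t-test, and leaving out each array. For the Csf1 variant 3 probes and the list genes they were chosen after seeing the data.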

Additional observations from a re-analysis of the deposited data

How the results depend on the processing

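With 2 arrays in a group, the precision rests on the spread shared by all 6 arrays. The rise of Il34 kept its call at both times under every alternative but the methods' t-test (adjusted p = 0.139 at 24 h and 0.138 at 48 h). That t-test called 0 members at either time. The call of Csf2 was less firm: 1 member in place of 2 was called at both times with normexp and quantile normalization (Csf2 log2 difference 0.34 at 24 h and 0.39 at 48 h), without a filter on dim probes, and with the demand of a signal well above background on all 6 arrays, which leaves Csf2 out. With slide as a block, which removes the 24 h array alone on its slide, 1 member was called at 24 h. Leaving out 1 array at a time gave 1 to 2 members at 24 h and at 48 h, and 0 for 48 h against 24 h. Kitl at 24 h was called with median centring (-1.02, adjusted p = 0.027). The Csf1 variant 3 probes lost their call at 48 h without a filter (adjusted p = 0.152 and 0.132) and with the methods' t-test (0.221 and 0.212). At 24 h both gained a call with normexp background correction (adjusted p = 0.0268 and 0.0151), with normexp and quantile normalization (0.0430 and 0.0234) and with an intensity trend (0.0256 and 0.0146), and A_55_P2017914 alone with median centring (0.0427) and with all 6 arrays well above background (0.0439). The cause of these changes was not tested, apart from genes left out by a filter.

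Signs turned only in differences that were not called. For Csf1r these were 24 h against Control with median centring (-0.061) and 48 h against Control with quantile normalization (0.0032), normexp and quantile normalization (0.014) and the mean of the probes (0.057); leaving out 1 array gave -0.20 to 0.057. For 48 h against 24 h, Il34 turned with median centring (0.18), the authors' values (0.0030) and slide as a block (0.058), Cbl with quantile normalization (0.024) and median centring (0.17), and Csf2 with quantile normalization (0.087) and normexp and quantile normalization (0.052). There, leaving out 1 array gave -0.069 to 0.058 for Il34, with 0.048 among them, -0.15 to 0.13 for Cbl, with 0.012 among them, -0.69 to 0.097 for Csf2 and -0.094 to 0.59 for Kitl. Of 38 values of list genes, none changed sign; 20 kept their call without a filter, 33 with median centring (lost: Map2k1 and Mpeg1 at 24 h, and Stat3, Cd14 and Sdc1 at 48 h), 21 to 30 with 1 array left out, and 0 with the methods' t-test. Stat5a, Cdh5, Mrc1, Socs3 and Cish kept their calls at both times without any 1 array.

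Groups share replicate numbers, but the labels do not say what a number marks. Deviations of same-numbered arrays from their group means correlated at 0.207, 0.165 and 0.249 across 29330 probes. With the replicate number as a block, 4652 probes in place of 4412 were called at 24 h and 4480 in place of 4049 at 48 h, and 2 members were called at each time. Under the block the Csf1 variant 3 probes were also called at 24 h (adjusted p = 0.0294 and 0.0216), Egr1 was not at 48 h (adjusted p = 0.061), and Csf1r differed by 0.22 and -0.07 as before.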
